A study of Mus with 2 samples.

Results

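The data below concern 9 genes of the adrenergic receptor and cAMP cascade, out of 32285 genes counted in nuclei of mouse interscapular brown adipose tissue (iBAT). They were chosen by name, as parts of 1 cascade: the receptors Adrb1, Adrb3 and Adra1a, the stimulatory G-protein alpha subunit gene Gnas, the adenylyl cyclase Adcy3, the phosphodiesterases Pde3b, Pde4b and Pde4d, and the protein kinase A (PKA) regulatory subunit Prkar2b. Single-nucleus RNA-seq with the 10x 3′ chemistry was performed on 2 libraries, each pooled from 4 mice of the C57BL/6 strain at 8 weeks of age on normal chow. Wtap flox/flox mice, with loxP sites around exon 4 of Wtap, were the controls. Wtap-BKO mice carried the same floxed alleles plus Ucp1-iCre, which expresses Cre recombinase from the Ucp1 locus and so acts in cells that have switched on this brown adipocyte gene. WTAP is a regulatory subunit of the complex that writes m6A on RNA.

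In brown fat, noradrenaline from sympathetic nerves binds beta-adrenergic receptors on adipocytes, and Gs, whose alpha subunit Gnas encodes, then activates adenylyl cyclases that make cAMP. cAMP releases the catalytic subunits of PKA from its regulatory subunits, and PKA drives lipolysis and the transcription of thermogenic genes, while phosphodiesterases break cAMP down. The alpha1 receptors couple to Gq and calcium instead.

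Over the 9494 nuclei of the flox/flox library 10770604 unique molecular identifiers (UMIs) were counted, a median of 954 per nucleus, and over the 8772 nuclei of the library labelled Wtap-BKO, called BKO below, 13945673 UMIs were counted, a median of 1306. Only 20 barcodes occurred in both. With 1 library per genotype there is no replicate check, so no test between genotypes was possible, and every interval below is an exact 95% interval for counting error only. Levels are counts per 1000000 UMIs (CPM), from the UMIs summed over the nuclei of a class. A fold difference between libraries is given from 20 UMIs upward in both together, and the size named below is 2-fold. Wtap itself had 50.6 CPM in flox/flox and 48.2 CPM in BKO adipocyte nuclei, a log2 ratio of -0.07 (-0.27 to 0.14). Reads at the 3′ end of the gene lie mostly outside the deleted exon, so this level does not check the labels. Mitochondrial UMIs, which are not nuclear, made up 7.60% of the flox/flox library and 11.7% of the BKO library.

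Nuclei were grouped by clustering without the 9 genes or the rest of their pathway, and the clusters were named from marker genes. Adipocyte nuclei numbered 6739 in flox/flox and 4916 in BKO, endothelial nuclei 1212 and 875, pericyte nuclei 411 and 205, fibroblast nuclei 268 and 480, and immune nuclei (macrophages, T cells and B cells) 422 and 1924. Since these markers named the clusters, their levels describe the classes and do not check the names. The summed level of the 8 pericyte markers was 5064 and 5307 CPM in pericyte nuclei and at most 399 CPM in the other classes. That of the 10 endothelial markers was 2961 and 4546 CPM in endothelial nuclei and at most 408 CPM elsewhere. The 10 fibroblast markers summed to 4643 and 7713 CPM in fibroblast nuclei, and to 742 CPM in BKO endothelial nuclei. The 12 adipocyte markers were the least confined. They summed to 10532 and 11295 CPM in adipocyte nuclei, but still to between 3174 and 5716 CPM in the other 4 classes, with none of the 12 at 0 in any class. The 10 adipocyte reference genes, metabolic genes such as Acsl1, Fasn and Gpam, gave a measure of this adipocyte RNA. Their median level outside adipocytes, as a share of the adipocyte level in the same library, was 0.483 in flox/flox immune nuclei and 0.322 in BKO immune nuclei, and between 0.250 and 0.412 in endothelial, pericyte and fibroblast nuclei. A gene's level outside adipocytes is read against that share below.

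**Figure D1:**
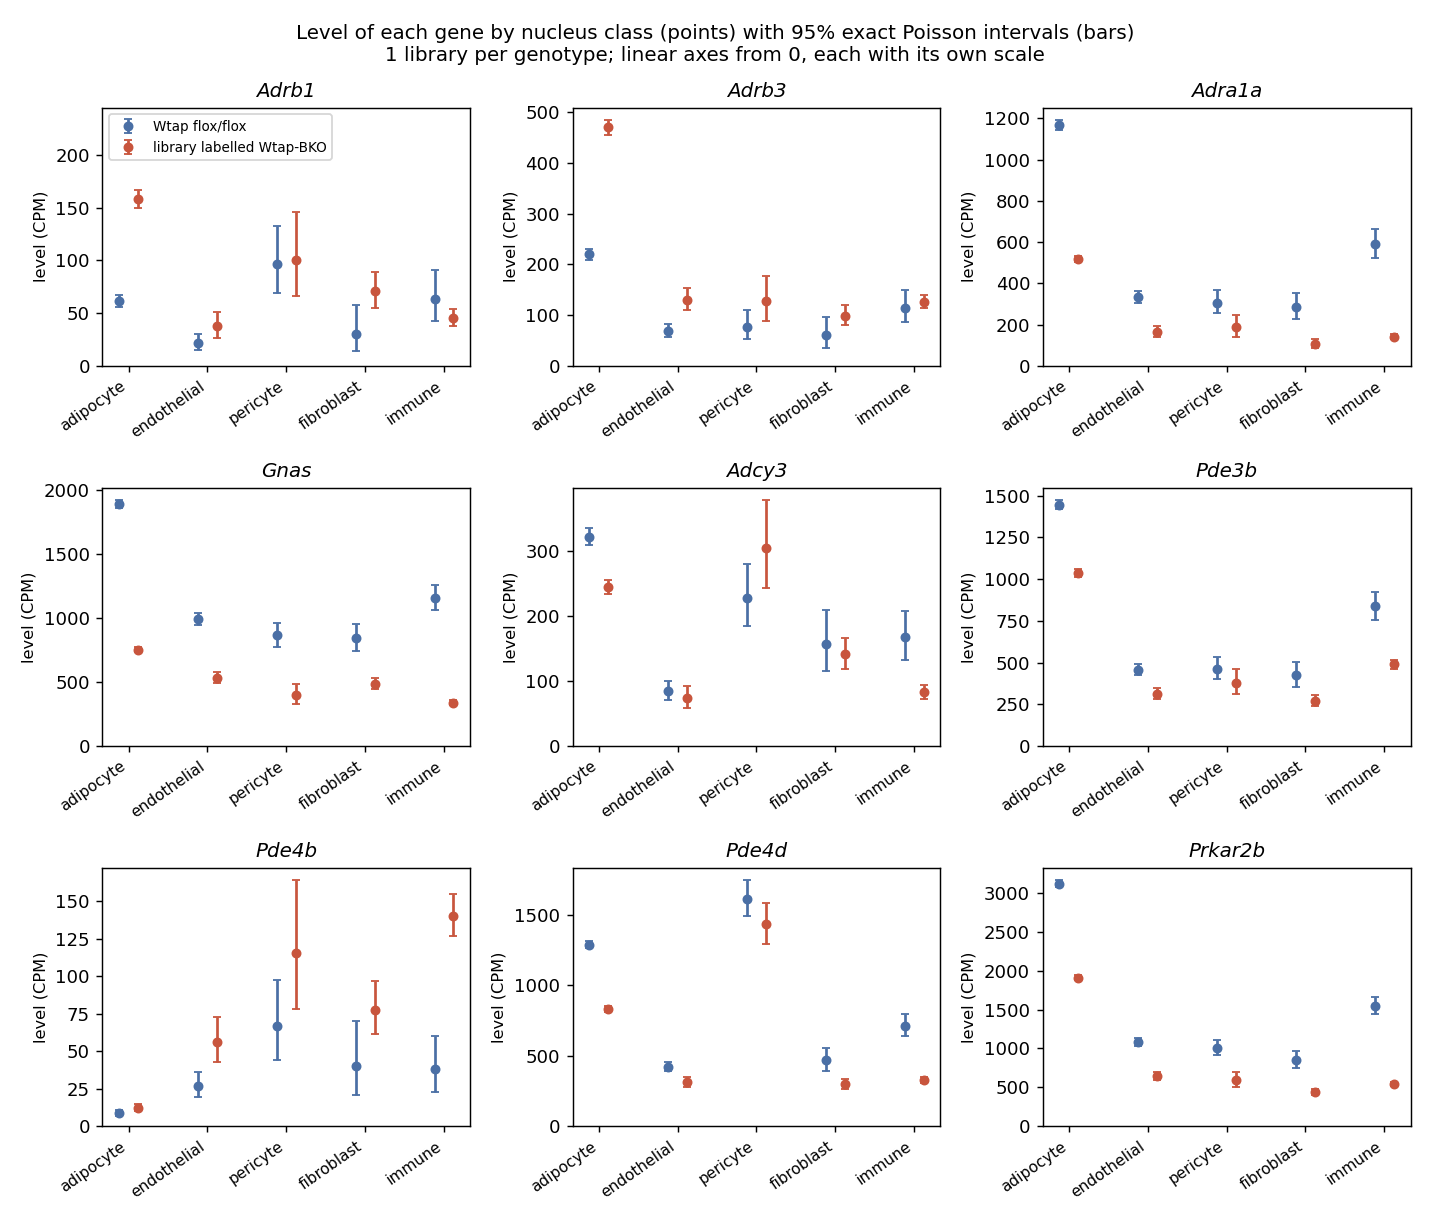
Level of each gene in CPM (vertical axes, linear from 0) in the 5 classes of nuclei (horizontal axes), with blue points for the Wtap flox/flox library, red points for the library labelled Wtap-BKO, and bars for 95% exact Poisson intervals. Adrb3, Adra1a, Gnas, Pde3b and Prkar2b had their highest point in adipocyte nuclei in both libraries, Pde4d in pericyte nuclei in both, and Pde4b its lowest point in adipocyte nuclei in both.

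Adrb1 encodes the beta1-adrenergic receptor (ENSMUSG00000035283, chr19:56722117-56725150 in GRCm38, a span of 3.03 kb). In adipocyte nuclei its level was 61.6 CPM (56.2 to 67.5, 468 UMIs) in flox/flox and 158 CPM (150 to 167, 1318 UMIs) in BKO, 2.56-fold higher with a log2 ratio of 1.36 (1.21 to 1.51). The intervals were far apart. In flox/flox the adipocyte level was not the highest of the 5: pericyte nuclei had 97.1 CPM (69.0 to 133), immune nuclei 63.7 CPM (42.9 to 90.9), fibroblast nuclei 30.2 CPM (13.8 to 57.4) and endothelial nuclei 21.4 CPM (14.8 to 29.9). The intervals of all neighbours in that order overlapped. In BKO the adipocyte level was above all others, followed by pericyte nuclei at 101 CPM (66.3 to 146), fibroblast nuclei at 70.7 CPM (55.1 to 89.3), immune nuclei at 45.0 CPM (37.6 to 53.5) and endothelial nuclei at 37.3 CPM (26.6 to 51.0). The pericyte log2 ratio between the libraries was 0.05 (-0.71 to 0.80), and it ran from -0.50 with adipocyte RNA subtracted to 0.97 with classes from the marker UMIs of each nucleus, so no direction is given. The share of thinned pericyte nuclei with an Adrb1 UMI was 10.0% in flox/flox (5.43% to 16.5%) and 6.00% in BKO (2.23% to 12.6%), with overlapping intervals. Relative to adipocytes, the pericyte level was 1.57 in flox/flox and 0.636 in BKO, above the range of the adipocyte reference genes in pericyte nuclei in both libraries (0.260 to 0.750 and 0.246 to 0.571).

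Adrb3 encodes the beta3-adrenergic receptor, the receptor through which selective agonists activate rodent fat (ENSMUSG00000031489, chr8:27225776-27230845, 5.07 kb). Its adipocyte level was 219.5 CPM (209 to 230.3, 1667 UMIs) in flox/flox and 469.7 CPM (455 to 485, 3916 UMIs) in BKO, 2.14-fold higher with a log2 ratio of 1.10 (1.01 to 1.18). Adipocyte nuclei were highest in both libraries. Outside adipocytes the flox/flox levels ran from 60.4 CPM in fibroblast nuclei (35.8 to 95.5) to 115 CPM in immune nuclei (86.1 to 149), and the BKO levels from 97.9 CPM in fibroblast nuclei (79.4 to 119) to 130.2 CPM in endothelial nuclei (109 to 154). Neighbours among the 4 classes overlapped in both libraries. As a share of the adipocyte level these were between 0.208 and 0.522, within the range of the reference genes in every class and library.

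Adra1a encodes the alpha1A-adrenergic receptor (ENSMUSG00000045875, chr14:66635251-66771240, 136 kb). It moved the other way from the beta receptors. Adipocyte nuclei had 1169 CPM (1144 to 1193, 8874 UMIs) in flox/flox and 516 CPM (501 to 532, 4305 UMIs) in BKO, 2.26-fold lower with a log2 ratio of -1.18 (-1.23 to -1.13). In the other classes it was 592 CPM in flox/flox immune nuclei and 141 CPM in BKO immune nuclei, 334 and 165 CPM in endothelial nuclei, 306 and 186 CPM in pericyte nuclei, and 285 and 106 CPM in fibroblast nuclei. Every class had a lower level in BKO, with an interval of the log2 ratio wholly below 0, from -0.72 (-1.22 to -0.23) in pericyte nuclei to -2.07 (-2.29 to -1.85) in immune nuclei. All 8 levels outside adipocytes stood at 0.205 to 0.507 of the adipocyte level and within the reference genes' range.

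Nuclei with at least 1 UMI moved in the same directions for the 3 receptors in adipocytes once every nucleus had been thinned to 1000 UMIs, which left out 3449 flox/flox and 1080 BKO adipocyte nuclei with fewer. Adrb1 was seen in 6.47% of thinned flox/flox adipocyte nuclei (213 of 3290, 5.66% to 7.37%) and 14.03% of BKO ones (538 of 3836, 12.9% to 15.2%), and without thinning in 6.51% and 21.4%. Adrb3 was seen in 17.9% (16.6% to 19.3%) and 29.9% (28.5% to 31.4%), and Adra1a in 64.1% (62.5% to 65.8%) and 35.3% (33.8% to 36.9%). Immune nuclei were taken as the class that should lack Adrb3: 10.2% of thinned flox/flox (19 of 186, 6.26% to 15.5%) and 9.05% of BKO immune nuclei (103 of 1138, 7.45% to 10.9%) had an Adrb3 UMI. The adipocyte shares of Adrb3 lay above this background in both libraries, and so did those of Adra1a, with 44.1% (36.8% to 51.5%) and 10.6% (8.90% to 12.6%) of immune nuclei. The Adrb1 level in flox/flox immune nuclei was 1.03 of the adipocyte level, above the reference genes' range of 0.419 to 0.714. Immune nuclei are therefore not taken as a background for Adrb1. An Adrb1 UMI was seen in 6.99% of flox/flox (3.77% to 11.7%) and 3.78% of BKO immune nuclei (2.75% to 5.06%). The adipocyte share lay above the immune one in BKO only. Median depth before thinning was 990 and 1478.5 UMIs in adipocyte nuclei and 897 and 1141.5 in immune nuclei.

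Gnas encodes the alpha subunit of Gs (ENSMUSG00000027523, chr2:174284320-174346744, 62.4 kb). Its locus makes several transcripts from alternative first exons that share the 3′ exons, and 3′ counts do not separate them. Adipocyte nuclei had 1893 CPM (1862 to 1924, 14376 UMIs) in flox/flox and 752 CPM (734 to 771, 6274 UMIs) in BKO, 2.52-fold lower with a log2 ratio of -1.33 (-1.37 to -1.29). The other classes of the flox/flox library had 1161 CPM (immune), 994 CPM (endothelial), 866 CPM (pericyte) and 843 CPM (fibroblast), and those of the BKO library 339, 533, 402 and 489 CPM in the same order. Every class had a lower level in BKO, with log2 ratios from -0.79 (-1.01 to -0.56) in fibroblast nuclei to -1.78 (-1.93 to -1.62) in immune nuclei. Outside adipocytes Gnas stood at 0.445 to 0.709 of the adipocyte level, above the reference genes' median in all 8 cases and above their whole range in BKO fibroblast nuclei. With a share of adipocyte RNA equal to that median subtracted, the fibroblast difference changed sign (0.21) and the pericyte difference shrank to -0.14, while that in immune nuclei stayed at -1.35.

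Adcy3 is a membrane adenylyl cyclase (ENSMUSG00000020654, chr12:4133116-4213525, 80.4 kb). Adipocyte nuclei had 323 CPM (310 to 336) in flox/flox and 245 CPM (234 to 255) in BKO, a log2 ratio of -0.40 (-0.49 to -0.32) that is short of 2-fold. Pericyte nuclei had 229 CPM (185 to 281) and 305 CPM (243 to 379), so pericytes held the highest BKO point, although its interval overlapped that of BKO adipocytes. The pericyte log2 ratio was 0.42 (-0.03 to 0.86), and it ran from -0.06 with classes from the marker UMIs of each nucleus to 1.02 with adipocyte RNA subtracted. Immune nuclei went from 168 to 82.7 CPM, a log2 ratio of -1.02 (-1.39 to -0.63). Fibroblast nuclei had 158 and 141 CPM and endothelial nuclei 84.2 and 73.7 CPM, and both intervals of the ratio included 0. The fibroblast value of -0.16 was 0.46 with adipocyte RNA subtracted. Relative to adipocytes, Adcy3 in BKO pericyte nuclei stood at 1.25 and in BKO fibroblast nuclei at 0.578, above the reference genes' highest values of 0.571 and 0.483.

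Pde3b is the insulin-responsive phosphodiesterase of adipocytes (ENSMUSG00000030671, chr7:114415222-114537938, 123 kb). Its adipocyte level was 1445 CPM (1418 to 1473) in flox/flox and 1036 CPM (1015 to 1058) in BKO, a log2 ratio of -0.48 (-0.52 to -0.44). Immune nuclei were next in both libraries, with 838 CPM (757 to 925) and 489 CPM (464 to 516). Pericyte nuclei had 463 and 379.9 CPM, endothelial nuclei 458 and 314 CPM, and fibroblast nuclei 423 and 269.5 CPM, with overlapping intervals between neighbours. Every class had a lower BKO level and none reached 2-fold. The pericyte log2 ratio of -0.29 (-0.65 to 0.07) had an interval that included 0. It was 0.09 with classes from the marker UMIs of each nucleus and -1.03 with nuclei over 5% mitochondrial UMIs removed. Within the immune class T cells had 1023 CPM in flox/flox and 561 CPM in BKO, and macrophages 766 and 459 CPM. The log2 ratio in immune nuclei was -0.78, but 0.15 with adipocyte RNA subtracted.

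Pde4b, a cAMP phosphodiesterase best known from immune cells, was the 1 gene of the 9 with its lowest level in adipocytes (ENSMUSG00000028525, chr4:102087332-102607275, 519.9 kb). Adipocyte nuclei had 8.69 CPM (6.72 to 11.1, 66 UMIs) in flox/flox and 12.4 CPM (10.1 to 14.98, 103 UMIs) in BKO. Immune nuclei had 38.2 CPM (22.6 to 60.4, 18 UMIs) in flox/flox and 140.2 CPM (127 to 155, 402 UMIs) in BKO, 3.67-fold higher with a log2 ratio of 1.88 (1.20 to 2.65). The intervals did not overlap. Most of these UMIs were in macrophage nuclei, which went from 37.2 CPM (12 UMIs) to 172 CPM (317 UMIs), a log2 ratio of 2.21 (1.38 to 3.18). T cell nuclei went from 35.3 CPM on 5 UMIs to 78.3 CPM on 76, and the interval of that ratio, -0.14 to 2.81, included 0. The share of thinned immune nuclei with a Pde4b UMI was 1.08% in flox/flox (2 of 186, 0.130% to 3.83%) and 13.4% in BKO (152 of 1138, 11.4% to 15.5%), and 3.79% and 14.5% without thinning. Adipocyte nuclei, with 0.912% (0.616% to 1.30%) and 1.28% (0.946% to 1.69%), were the background here. The interval of the thinned flox/flox immune share overlapped the adipocyte one, while the interval of the flox/flox immune CPM lay above that of flox/flox adipocytes. Macrophages made up 293 of the 422 flox/flox and 1123 of the 1924 BKO immune nuclei, so this group also differed in size and make-up.

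In the remaining classes Pde4b was higher in BKO at every point. Endothelial nuclei had 27.0 and 56.5 CPM, a log2 ratio of 1.06 (0.47 to 1.67). Fibroblast nuclei had 40.3 and 77.7 CPM, a log2 ratio of 0.95 (0.06 to 1.96), and pericyte nuclei 67.2 and 115 CPM, a log2 ratio of 0.78 (-0.01 to 1.58). The endothelial comparison set different nuclei side by side. Most flox/flox endothelial nuclei (847 of 1212) were in a cluster rich in mitochondrial UMIs and most BKO ones (576 of 875) in another, led by Cyyr1 and Adgrl4, and the median gene of the class was higher in BKO by 0.34 on the log2 scale. Within those clusters Pde4b had log2 ratios of 0.72 (-0.14 to 1.56) and 0.77 (-0.20 to 1.85). Macrophage markers summed to 126 CPM in flox/flox and 344 CPM in BKO endothelial nuclei, with none of the 9 at 0. The 10 fibroblast markers there went from 180 to 742 CPM with none at 0, and the 8 T cell markers from 56.6 CPM with 1 at 0 to 158 CPM with none at 0. In pericyte nuclei the macrophage markers went from 72.2 CPM with 2 at 0 to 238 CPM with none at 0, the T cell markers from 24.9 CPM with 2 at 0 to 138 CPM with none at 0, and the fibroblast markers from 343 CPM with 2 at 0 to 596 CPM with 3 at 0. In fibroblast nuclei the macrophage markers went from 101 CPM with 1 at 0 to 117 CPM with none at 0, and the T cell markers from 30.2 CPM with 4 at 0 to 74.7 CPM with none at 0. The part of these markers in the Pde4b values was not tested.

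Pde4d, the other PDE4 enzyme here, spans 1302 kb (ENSMUSG00000021699, chr13:108654177-109955969). It was highest in pericyte nuclei of both libraries, at 1613 CPM (1491 to 1742) in flox/flox and 1430.2 CPM (1291 to 1581) in BKO, a log2 ratio of -0.17 (-0.36 to 0.01). Those levels were 1.25 and 1.73 of the adipocyte level, against highest reference genes of 0.750 and 0.571 in the same nuclei. Adipocyte nuclei had 1287 CPM (1262 to 1313) and 829 CPM (809.6 to 849), a log2 ratio of -0.64 (-0.68 to -0.59). Immune nuclei had 713 and 328 CPM, fibroblast nuclei 470.1 and 301 CPM, and endothelial nuclei 422 and 311 CPM. The immune difference reached 2-fold, with a log2 ratio of -1.12 (-1.30 to -0.93), and was -0.58 with adipocyte RNA subtracted. In fibroblast nuclei the log2 ratio of -0.64 (-0.94 to -0.34) changed sign with adipocyte RNA subtracted, to 0.34. A Pde4d UMI was seen in 73.1% of thinned flox/flox pericyte nuclei (95 of 130, 64.6% to 80.5%) and 65.0% of BKO ones (65 of 100, 54.8% to 74.3%), against 48.4% and 20.4% of immune nuclei. Pde4d in pericyte nuclei was thus above the background in both libraries.

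Prkar2b encodes RIIbeta, the main PKA regulatory subunit of adipose tissue (ENSMUSG00000002997, chr12:31958450-32061648, 103 kb). Adipocyte nuclei had 3117 CPM (3077 to 3157, 23670 UMIs) in flox/flox and 1909.7 CPM (1880.2 to 1939.6, 15923 UMIs) in BKO, a log2 ratio of -0.71 (-0.74 to -0.68). The other flox/flox classes ran from 856 CPM in fibroblast nuclei (754 to 968) to 1549 CPM in immune nuclei (1439 to 1665), and the BKO classes from 439 CPM in fibroblast nuclei (399 to 482) to 649 CPM in endothelial nuclei (601 to 699.9). Immune nuclei had 2.86-fold less in BKO, with a log2 ratio of -1.52 (-1.64 to -1.39). In all 8 cases outside adipocytes the level was 0.230 to 0.497 of the adipocyte level, within the reference genes' range, and 94.2% of thinned flox/flox and 77.9% of thinned BKO adipocyte nuclei had a Prkar2b UMI against 71.0% and 31.7% of immune nuclei.

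**Figure D2:**
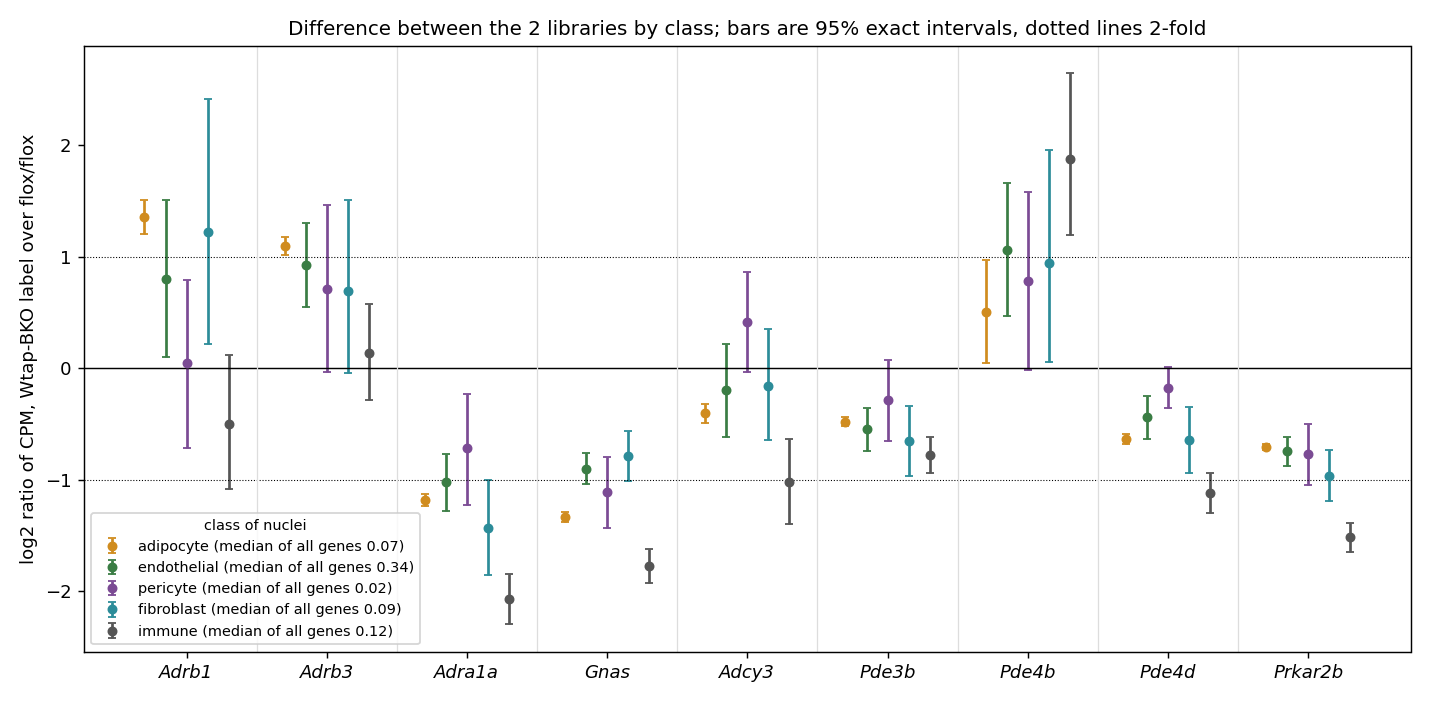
Log2 ratio of CPM between the libraries (vertical axis, Wtap-BKO label over Wtap flox/flox) for the 9 genes (horizontal axis) in the 5 classes (colours), with bars for 95% exact intervals and dotted lines at 2-fold. In adipocyte nuclei Adrb1 (1.36) and Adrb3 (1.10) lay above the upper line and Adra1a (-1.18) and Gnas (-1.33) below the lower one, and in immune nuclei Adra1a (-2.07) lay lowest and Pde4b (1.88) highest.

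Counted over the list, 2 of the 9 genes were at least 2-fold higher in BKO adipocyte nuclei, Adrb1 and Adrb3, where 14.7% of the 14085 genes with 20 UMIs were, and 2 were at least 2-fold lower, Adra1a and Gnas, where 4.25% of all genes were. The median log2 ratio of the 9 was -0.48 and that of all genes 0.07. Both beta receptors stayed above 0 and the 6 genes with negative values stayed below it under all alternatives tried in adipocyte nuclei. Library depth and mitochondrial share moved with these values, since the adipocyte nuclei had 4.48% mitochondrial UMIs in flox/flox and 11.7% in BKO, and so did markers of other cells. The 9 macrophage markers summed to 68.7 and 129 CPM and the 10 fibroblast markers to 77.6 and 174 CPM in these nuclei, with none at 0. The 8 T cell markers went from 17.1 to 57.4 CPM with none at 0, the 6 skeletal muscle markers from 6.19 CPM with 1 at 0 to 51.5 CPM with none at 0, and the 10 endothelial markers from 133 to 82.3 CPM with none at 0. With nuclei over 5% mitochondrial UMIs removed, the adipocyte log2 ratios were 1.51 for Adrb1, 1.58 for Adrb3, -1.13 for Adra1a and -1.31 for Gnas, and the same 4 genes were past 2-fold. That filter kept 5187 of the 6739 flox/flox adipocyte nuclei but only 1061 of the 4916 BKO ones. Adrb3 fell short of 2-fold under 2 other alternatives, at 0.85 with classes from the marker UMIs of each nucleus and at 0.76 without 1 adipocyte cluster, the one led by Slc7a10. The other 5 genes also moved with nuclei over 5% mitochondrial UMIs removed. Pde4b then went from 0.51 to 0.90, Prkar2b from -0.71 to -0.46, Pde4d from -0.64 to -0.42, Adcy3 from -0.40 to -0.23 and Pde3b from -0.48 to -0.11. The part of the mitochondrial share and of the foreign markers in these values was not tested.

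In endothelial nuclei 1 gene was higher by 2-fold, Pde4b, beside 15.4% of all genes, and 1 lower, Adra1a, beside 1.64%. The pooled Adra1a value of -1.02 was -0.77 with a minimum of 1000 UMIs. Within the cluster that held most flox/flox endothelial nuclei it was -0.50 (-0.78 to -0.23), and within the one that held most BKO ones -1.90 (-2.61 to -1.23). The Pde4b value fell below 2-fold under 5 alternatives, to as little as 0.72. In pericyte nuclei none of the 9 was higher (6.35% of all genes) and 1 was lower, Gnas (5.43%), a value that fell short of 2-fold under 5 alternatives. In fibroblast nuclei 1 was higher, Adrb1 on 9 flox/flox UMIs and 70 BKO UMIs (11.4%), and 1 was lower, Adra1a (4.31%). The Adrb1 value of 1.23 fell below 2-fold under 4 alternatives, to as little as 0.41 with nuclei over 5% mitochondrial UMIs removed. In immune nuclei 1 was higher, Pde4b (12.9%), and 5 were lower, Adra1a, Gnas, Adcy3, Pde4d and Prkar2b (5.74%). The Adcy3 value of -1.02 fell short of 2-fold under 3 alternatives, to -0.76 with classes from marker UMIs, and the Pde4d value under 1, to -0.58 with adipocyte RNA subtracted. The median of the 9 in immune nuclei was -1.02, beside 0.12 for all genes. The adipocyte reference genes' share in immune nuclei also went down, from 0.483 to 0.322. The 5 lower genes stood at 0.497 to 0.613 of the adipocyte level in flox/flox immune nuclei and at 0.273 to 0.451 in BKO, within the reference genes' range in both.

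**Figure D3:**
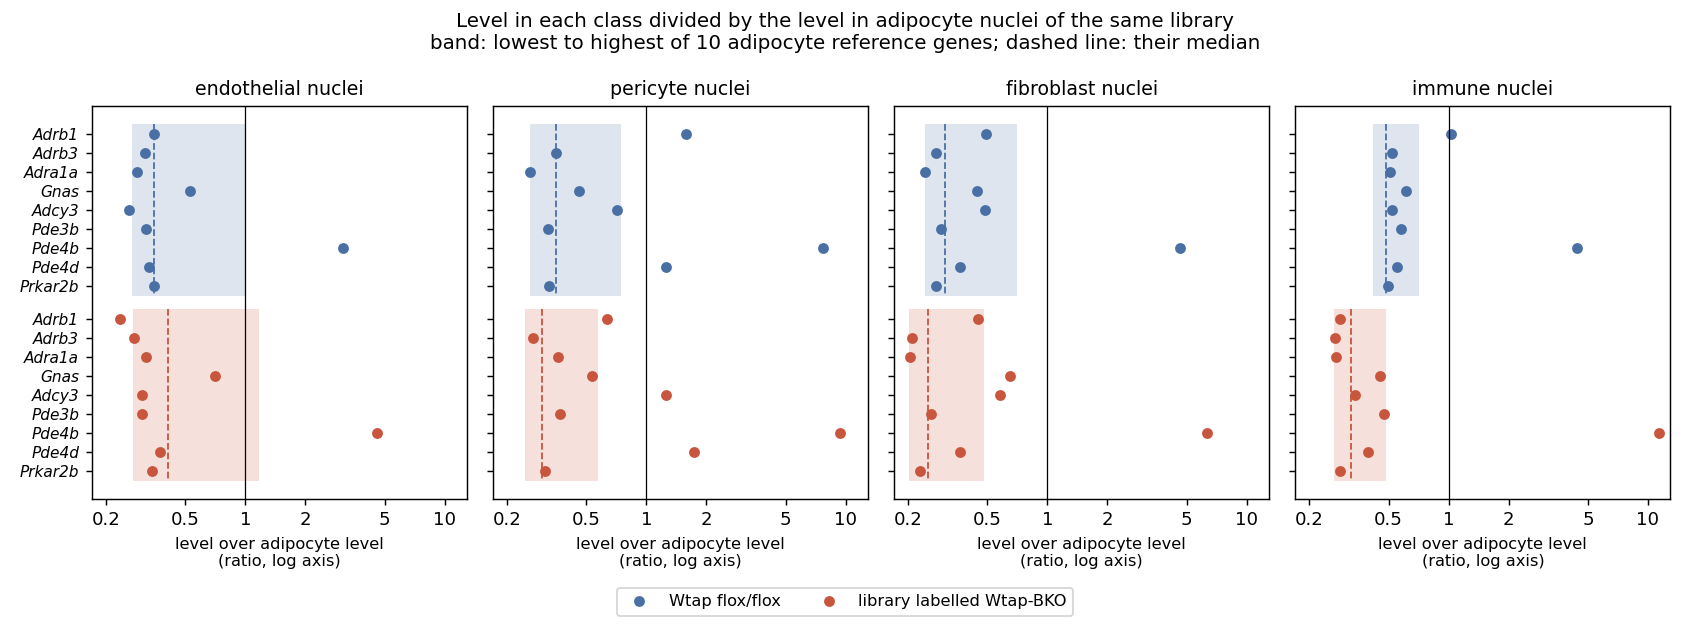
Level of each gene in 4 classes divided by its level in adipocyte nuclei of the same library (horizontal axes, ratio on a log axis), with genes on the vertical axis, blue for Wtap flox/flox and red for the library labelled Wtap-BKO. Shaded bands run from the lowest to the highest of 10 adipocyte reference genes and dashed lines mark their median; Pde4b lay right of the band in all 8 cases, Pde4d and Adrb1 lay right of it in pericyte nuclei of both libraries, and Adrb3, Adra1a, Pde3b and Prkar2b lay within it in all 8.

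Set against the adipocyte reference genes, the 9 fell into groups. Adrb3, Adra1a, Pde3b and Prkar2b were within the reference range in all 4 classes of both libraries. That range was wide in endothelial nuclei, from 0.271 to 0.994 in flox/flox and from 0.275 to 1.17 in BKO. Pde3b in BKO immune nuclei, at 0.472, was near the top of its range (0.486, median 0.322). The part of adipocyte RNA in these levels was not tested. Pde4b was above the range in all 8 cases, at 3.11 to 11.4 of the adipocyte level. Adrb1 and Pde4d were above it in pericyte nuclei of both libraries, and so were Adcy3 in BKO pericyte and fibroblast nuclei and Gnas in BKO fibroblast nuclei (0.649). Below the range were Adcy3 in flox/flox endothelial nuclei (0.261) and Adrb1 in BKO endothelial nuclei (0.236). Adrb1 was also above it in flox/flox immune nuclei, at 1.03, on 30 UMIs.

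The adipocyte nuclei were not uniform. They formed 5 clusters, led by Myo5c and Cpt1b, by mitochondrial genes, by Lncbate10 and Foxp2, by Slc7a10, Cyp2e1 and Retn, and by interferon-inducible genes such as Gbp2 and Ifit1. The Slc7a10 cluster held 3.19% of the flox/flox adipocyte nuclei (215) and 10.0% of the BKO ones (494). Since the clusters were built from these nuclei, their levels are given as a description.

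**Figure D4:**
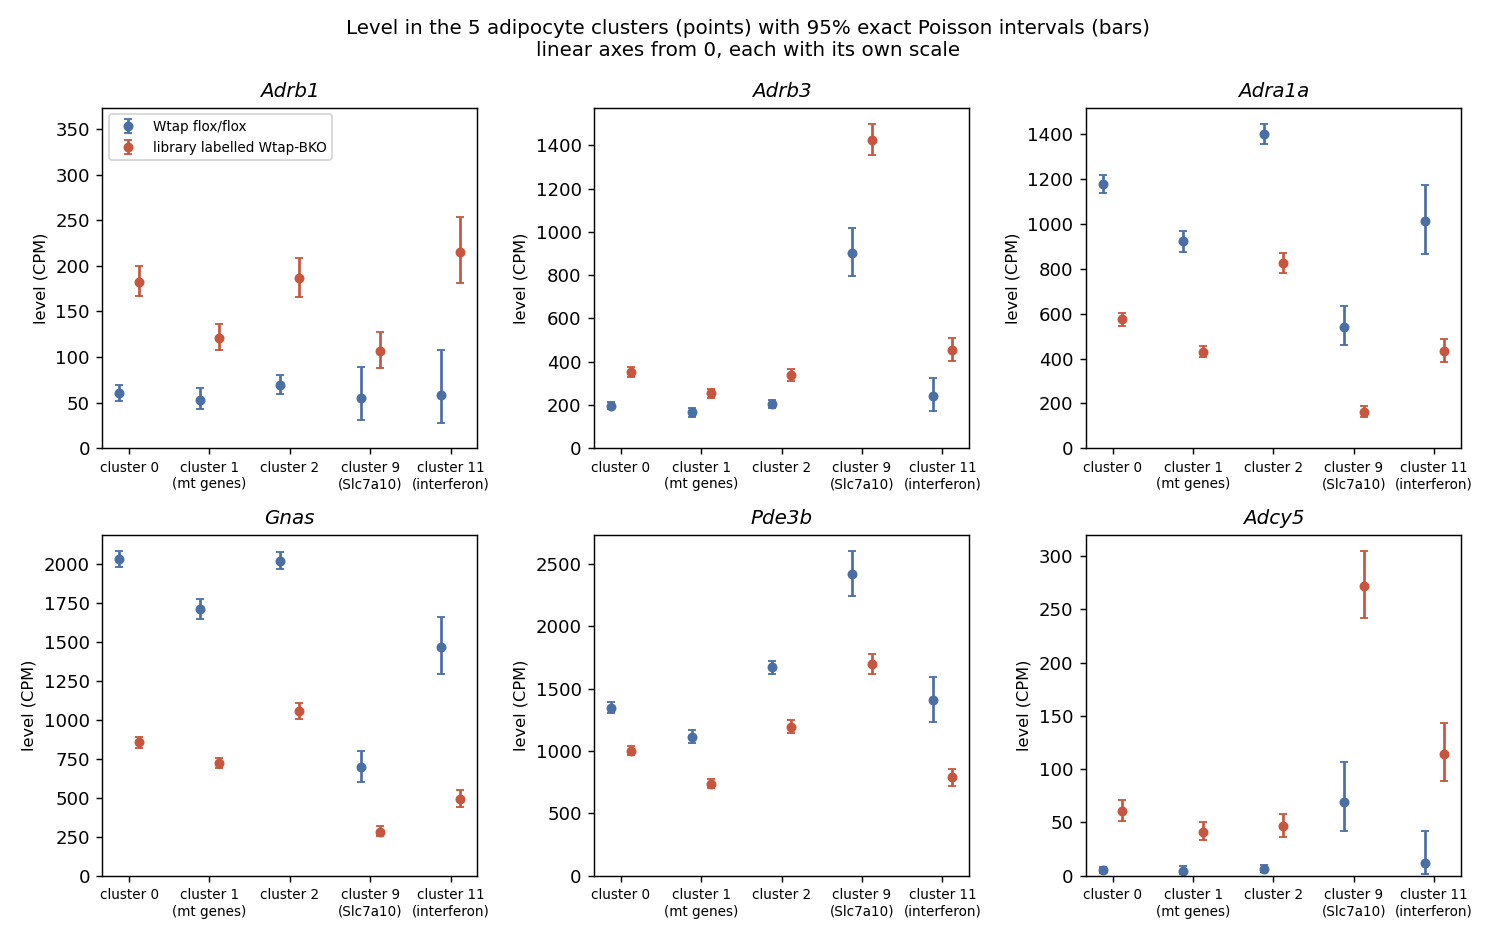
Level in CPM (vertical axes, linear from 0) of 6 genes in the 5 adipocyte clusters (horizontal axes; cluster 0 is led by Myo5c and Cpt1b, 1 by mitochondrial genes, 2 by Lncbate10 and Foxp2, 9 by Slc7a10 and 11 by interferon-inducible genes), blue for Wtap flox/flox and red for the library labelled Wtap-BKO, with 95% exact Poisson intervals as bars. Adrb3 and Pde3b peaked in cluster 9 of both libraries, where Adra1a and Gnas were lowest, and in every cluster Adrb1, Adrb3 and Adcy5 were higher and Adra1a and Gnas lower in BKO.

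Adrb3 was concentrated in the Slc7a10 cluster. Its level there was 904 CPM in flox/flox and 1427 CPM in BKO, compared with 192 and 326 CPM over the other 4 clusters together, 4.70-fold and 4.38-fold higher. The cluster held 15.7% of all adipocyte Adrb3 UMIs in flox/flox and 39.7% in BKO. Pde3b was higher there too, by 1.72-fold and 1.81-fold (2414 and 1694 CPM). Gnas was 2.79-fold and 2.90-fold lower, at 697 and 284 CPM, and Adra1a 2.20-fold and 3.53-fold lower, at 542 and 162 CPM. Prkar2b and Pde4d differed by at most 1.16-fold in either library.

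The larger share of this cluster in BKO entered the class totals. With it left out, the adipocyte log2 ratio of Adrb3 was 0.76 (0.66 to 0.86) in place of 1.10, below 2-fold, and within single clusters it lay between 0.61 and 0.92. Adrb1 kept 1.42 (1.26 to 1.58), with 0.95 in the Slc7a10 cluster and between 1.18 and 1.88 in the other 4. Adra1a kept -1.07 (-1.12 to -1.01), with single clusters from -1.74 in the Slc7a10 cluster to -0.76 in the Lncbate10 cluster, and Gnas -1.24 (-1.28 to -1.19), with -1.57 to -0.94. For these 4 genes the interval of the ratio lay on the same side of 0 in all 5 clusters.

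The other genes of the pathway were looked at in adipocyte nuclei through 68 genes in 9 lists, 59 of which had 20 UMIs. Of these 59, 5 (8.47%) were at least 2-fold higher in BKO and 3 (5.08%) at least 2-fold lower, next to 14.7% and 4.25% of all genes, and their median log2 ratio was 0.01. The largest differences were among the other adenylyl cyclases, of which 3 of 6 were higher and 1 lower. Adcy5, a calcium-inhibited cyclase, went from 8.03 CPM (61 UMIs) to 84.1 CPM (701 UMIs), a log2 ratio of 3.39 (3.01 to 3.79). It was higher in all 5 adipocyte clusters, by log2 ratios of 1.98 to 3.55, and highest in the Slc7a10 cluster with 69.0 and 272 CPM. Adcy10, the soluble cyclase that bicarbonate activates, went from 4.48 to 29.9 CPM, a log2 ratio of 2.74 (2.22 to 3.30), and Adcy6, also inhibited by calcium, from 326 to 137 CPM, a log2 ratio of -1.26 (-1.36 to -1.15). Adcy6 was lower in all 5 clusters, from -1.38 to -0.96. For Adcy10 the log2 ratio was 3.68 in the Myo5c cluster, 1.78 in the mitochondrial one and 3.10 in the Lncbate10 one. In the Slc7a10 cluster it was 0.77 (-0.38 to 2.17), an interval that included 0. The interferon cluster had 0 and 15 Adcy10 UMIs, too few for a ratio. The third higher cyclase, Adcy7, was named after its values were seen and rested on 26 and 61 UMIs. It stood at 3.42 and 7.32 CPM in adipocyte nuclei but at 174 and 211 CPM in immune nuclei, and macrophage markers in adipocyte nuclei went from 68.7 to 129 CPM. Their part in the Adcy7 value was not tested.

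Among the other adrenergic receptors 3 of 6 had 20 UMIs and none reached 2-fold. The alpha1 receptor Adra1d had the highest log2 ratio of that list, 0.93, and Adra1b the lowest, -0.05. With classes from the marker UMIs of each nucleus, Adra1d was at 0.08. Adra1b rested on 16 and 17 UMIs. It ran from -0.59 with a minimum of 1000 UMIs to 0.70 as the mean of the CPM of single nuclei. Among the other G-protein alpha subunits 1 of 7 was higher, Gnal, the Gs relative first found in the olfactory system, from 3.42 to 14.8 CPM with a log2 ratio of 2.11 (1.49 to 2.78). In BKO 78 of its 123 UMIs lay in the Slc7a10 cluster, where flox/flox had 0 of its 26, and without that cluster its log2 ratio was 0.80. The lowest of that list was Gnao1 at -0.11.

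Among the other cAMP phosphodiesterases none of 13 was 2-fold higher and 2 were lower, with a list median of -0.40. Pde10a went from 14.1 to 5.88 CPM in adipocyte nuclei, a log2 ratio of -1.26 (-1.78 to -0.76), but its main site was the pericyte, with 1431 and 1199 CPM. Pde4c was the other, named after its values were seen, on 30 and 15 UMIs. The highest was Pde11a at 0.68, on 21 and 37 UMIs. With nuclei over 5% mitochondrial UMIs removed, Pde11a stood at 2.09 and Pde10a at -0.87, so both changed sides of 2-fold. Of the other PKA subunits and inhibitors none of 7 passed 2-fold in either direction, the ends being Prkar2a (0.38) and the catalytic subunit Prkacb (-0.75). The A-kinase anchoring proteins, which tether PKA, had a median of -0.38 over 9 genes, with Akap6 (1.07, on 20 and 46 UMIs, and 0.84 as the mean of the CPM of single nuclei) and Akap11 (-0.88) at the ends. Receptor kinases and arrestins, which switch receptors off, had a median of 0.47 over 6 genes, with Grk2 at 0.87 and Grk3 at -0.88. The CREB family and its coactivators ran from -0.38 (Crtc3) to 0.25 (Crem), and the EPAC exchange factors Rapgef3 and Rapgef4 were at 0.17 and 0.18.

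**Figure D5:**
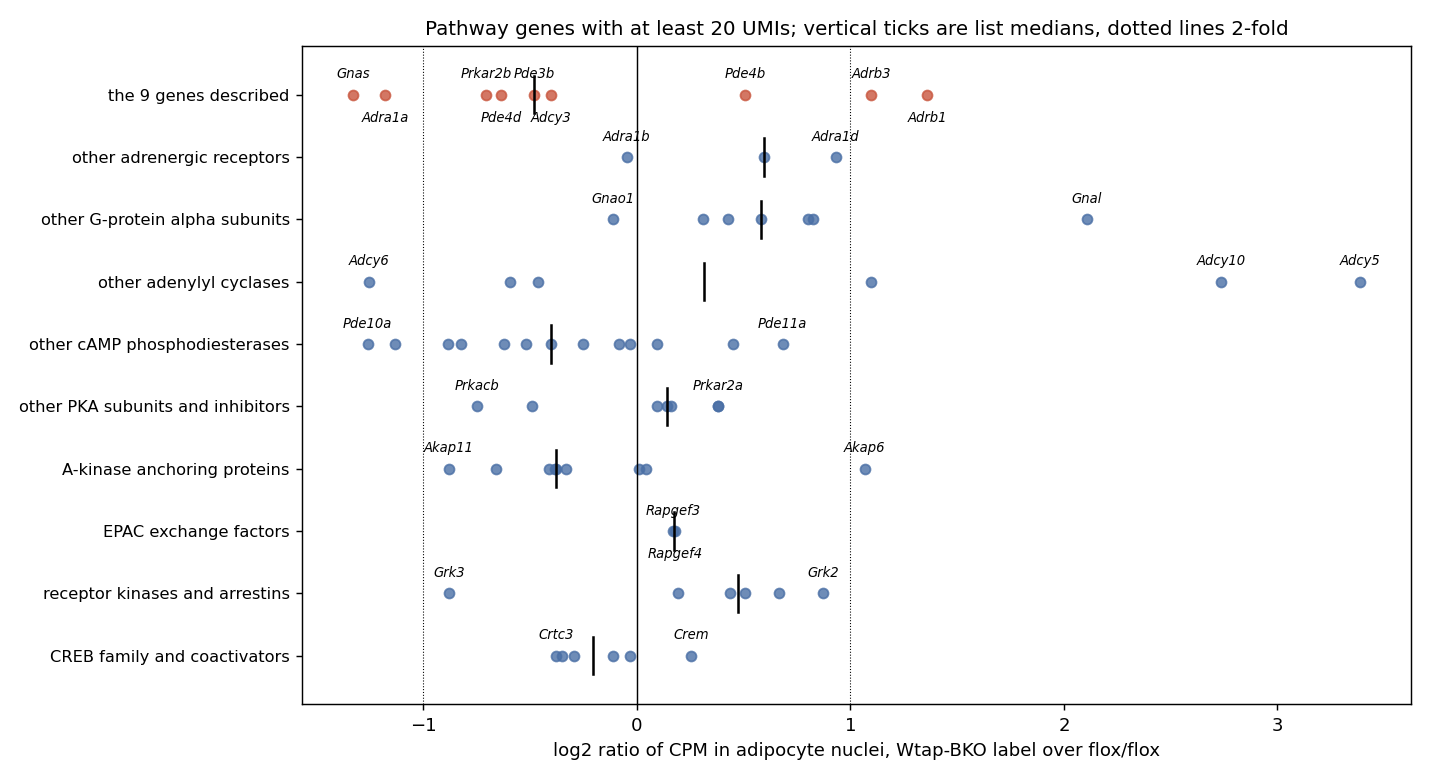
Log2 ratio of CPM in adipocyte nuclei (horizontal axis, Wtap-BKO label over Wtap flox/flox) for the 9 genes described (red) and the 59 other pathway genes with at least 20 UMIs (blue) by list (vertical axis), with a vertical tick at each list's median and dotted lines at 2-fold. Adcy5 (3.39), Adcy10 (2.74) and Gnal (2.11) lay farthest right, and Gnas (-1.33) and Pde10a (-1.26) farthest left.

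As a description of likeness, the genes with the highest Pearson r of log2(CPM + 1) over the 10 combinations of class and library were taken from 10198 genes with at least 200 UMIs. These points share libraries and adipocyte RNA, so r carries no test. Prkar2b was most like Entpd5, Slc36a2 and Aspg (r = 0.994, 0.993 and 0.989), and Adrb3 like Tmem45b, the reference gene Acacb and Mrpl38 (0.990, 0.976 and 0.968). Adra1a was most like Fam13a, Pon3 and Slc27a2 (0.987, 0.985 and 0.985), Gnas like Pmepa1, Letmd1 and Fbxo31 (0.982, 0.965 and 0.961), and Pde3b like Acot11, Immp2l and Tbc1d4 (0.983, 0.982 and 0.978). Pde4d was most like Pakap, Cdh2 and Rasl12 (0.975, 0.969 and 0.962) and Pde4b like Cnn2, Slc25a12 and Cdkn1b (0.966, 0.945 and 0.943). Lower values were found for Adcy3, with Dnajb4, Tbc1d32 and Ube2o (0.938, 0.935 and 0.935), and for Adrb1, with Sec24b, Setdb1 and Prrc2a (0.937, 0.915 and 0.900).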

How the data were processed

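Nuclei of frozen iBAT were sequenced by the authors with 10x 3′ v3.1 chemistry, 1 library per genotype, each from 4 pooled mice. The deposited values are raw UMI counts per gene and nucleus, made by the authors with Cell Ranger 5.0.0 per the file headers and the mm10 (GRCm38) build per the labels. The submitters' processing notes also name Trimmomatic, FastQC and Seurat. Whether intronic reads were counted is not given in the sources used here. All deposited nuclei held at least 500 UMIs, and no further filter was applied.

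The nuclei were integrated and clustered with Seurat 5.3.0 in R 4.3.3 (2000 variable features without the 9 genes and their pathway, 20 principal components, resolution 0.5). A cluster was named when at least 3 markers had 10 UMIs, 20 CPM and 2-fold the level of the other nuclei (for adipocytes, at least 50% of 12 markers at 1.5-fold over the other named clusters), and 419 flox/flox and 358 BKO nuclei stayed unnamed. The 10 leading genes of the adipocyte clusters and of 1 endothelial cluster held no marker of any list, so these names rest on the marker rule alone. Scrublet (scanpy 1.11.5) called 3 and 0 doublets, which means that the caller did not work here, so doublets were kept and removal by score is an alternative. UMIs were summed per class and library, with Poisson, conditional ratio and Clopper-Pearson intervals (scipy 1.17.1), and a count of 0 was set at a floor of 3 UMIs per library. The ratio intervals were tested on simulated data. No fold is given below 20 UMIs in both libraries together, and no p-value was computed. For shares of nuclei, each nucleus was thinned to 1000 UMIs.

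All 9 genes matched RefSeq GRCm38.p6, from which the coordinates come. They were described in all 5 classes. Other pathway genes were named in adipocyte nuclei when they reached 10 CPM and 2-fold, or stood at either end of their list. The genes and lists were chosen with earlier results of these data known. There were 12 processing alternatives and 1 added after seeing the data.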

Additional observations from a re-analysis of the deposited data

Results flagged for a closer look

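Adrb1 and Adcy3 had log2 ratios (BKO over flox/flox) whose point values were of opposite sign in classes whose 95% intervals did not overlap. For Adrb1 the values were 1.36 in adipocyte nuclei and 1.23 in fibroblast nuclei, but -0.50 in immune nuclei (-1.08 to 0.12). For Adcy3 they were 0.42 in pericyte nuclei (-0.03 to 0.86), but -0.40 in adipocyte nuclei and -1.02 in immune nuclei. The immune Adrb1 interval and the pericyte Adcy3 interval included 0, so neither of these signs is set beyond counting error. With 1 library per genotype, the difference between classes was not tested. The adipocyte reference genes' share in immune nuclei went from 0.483 to 0.322 between the same libraries, and its part in these values was not tested. With classes set by the marker UMIs of each nucleus, Adrb1 in immune nuclei was at 0.71, the sign of its adipocyte value, and Adcy3 in pericyte nuclei at -0.06. With adipocyte RNA subtracted, Adcy3 in pericyte nuclei was instead at 1.02. With nuclei over 5% mitochondrial UMIs removed, Adrb1 in fibroblast nuclei was at 0.41.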

How the results depend on the processing

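No paired analysis was possible because each genotype had 1 library, and leaving out replicates was not possible for the same reason. Of 45 values of the 9 genes in 5 classes, 34 kept their sign under every alternative that gave a value and 24 their side of 2-fold. No difference of at least 2-fold changed sign. The count of adipocyte members at least 2-fold higher fell from 2 to 1 with classes from marker UMIs and with the Slc7a10 cluster left out, the latter an alternative chosen after seeing the data. The count of values at least 2-fold lower over the 5 classes was 10, and 17 with nuclei over 5% mitochondrial UMIs removed and 4 with adipocyte RNA subtracted, where 17 of the 36 values outside adipocytes stayed above the floor in both libraries. A size of 1.5-fold gave 11 higher and 21 lower values over the 5 classes (5 and 10 at 2-fold), 4 members lower in adipocyte nuclei, and 12 pathway genes higher and 11 lower. The share of all genes that passed is given only for 2-fold in the main setting. The counts under alternatives are therefore not read as a result about these genes. Median-of-ratios scaling moved endothelial values by the class median of 0.34, and Pde4b there then had 0.72. Depth limits the small classes: the flox/flox library had 297839 fibroblast and 401850 pericyte UMIs, and Adrb1 and Pde4b rested on 9 and 12 UMIs in flox/flox fibroblast nuclei.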

Other observations

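The 419 flox/flox and 358 BKO nuclei that stayed unnamed, with 37.0% and 45.3% mitochondrial UMIs, held 7 of the 9 genes on at least 20 UMIs. Gnas stood at 904 and 371 CPM in them, a log2 ratio of -1.29 (-1.57 to -1.01), Prkar2b at 838 and 459 CPM (-0.87, -1.13 to -0.61), Adra1a at 145 and 78.9 CPM (-0.88, -1.55 to -0.23) and Pde4d at 239.9 and 139 CPM (-0.79, -1.29 to -0.30). Pde3b (-0.25), Adcy3 (0.32, the opposite sign from its adipocyte value of -0.40) and Adrb3 (0.82) had intervals that included 0, and Adrb1 and Pde4b had under 20 UMIs.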
